A study of Populus trichocarpa with 15 samples.

Results

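The regions described here are stretches of the *Populus trichocarpa* genome that were called as open chromatin in the leaves of exactly 1 of 14 branches. Overlapping or touching peaks of the 14 branch libraries were merged on the 19 assembled chromosomes, and each merged region was credited to every library with a peak base inside it. Of 55198 merged regions, 13226 (24.0%) held peaks of a single library and were under 1000 bp wide. They are called single-branch regions below. Which regions belong was decided by the peak calls themselves, so the number of calls, the significance and the width of these regions are given as a description with no test. The numbers per branch come from the same calls and are compared between trees below with that limit. Their position on the chromosomes and the content of a list that took no part in the choice were not used.

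All leaves came from wild trees in Oregon, with no treatment. Trees 13 and 14 are the 2 dominant stems of a single individual, represented by branches 13.1 to 13.5 and 14.1 to 14.5, and tree 4 is another tree, represented by branches 4.2 to 4.5. The ages of branches 13.4 and 14.1 were not determined in the study. Each branch gave a single library, so a region particular to a branch cannot be told apart from a region particular to a library.

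In ATAC-seq a transposase cuts accessible DNA and inserts sequencing adapters there, so reads pile up where nucleosomes are absent or loosely held. In plant leaves such sites are known to lie mostly at gene promoters and at distal regulatory elements. A peak caller lists the places where reads pile up beyond a set significance in a library.

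The number of single-branch regions differed widely between branches. In tree 13 there were 794 in branch 13.1, 2282 in 13.2, 566 in 13.3, 557 in 13.4 and 25 in 13.5. In tree 14 there were 1391 in branch 14.1, 1307 in 14.2, 2887 in 14.3, 564 in 14.4 and 152 in 14.5. In tree 4 there were 469 in branch 4.2, 194 in 4.3, 849 in 4.4 and 1189 in 4.5. Branches 14.3 and 13.2 stood highest and 13.5 lowest, and the ranges of the 3 trees overlapped. Branches 14.3 and 13.2 alone held 5169 of the regions (39.1%), and the 4 highest branches held 59.5%.

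The lists themselves ran from 12801 to 39694 peaks, a 3.10-fold range, and the 3 libraries with the most called regions (14.3, 13.2 and 14.1) were also the 3 with the most single-branch regions, while the shortest list, 13.5, had the fewest. Read depth was not known. Single-branch regions made up 7.44% of the called regions of branch 14.3, 6.26% of 13.2 and 0.198% of 13.5. Branches 14.2 and 14.4 departed the most from the order of list length, and several others departed by fewer places. Branch 14.2 was only eighth by called regions (25411) but behind only 14.3, 13.2 and 14.1 by single-branch regions, which made up 5.14% of its calls. Branch 14.4 called 30143 regions, of which 1.87% were its own.

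Tree 13 averaged 845 ± 852 single-branch regions per branch (SD, n = 5) and tree 14 averaged 1260 ± 1046 (SD, n = 5). The difference was -415, beside SDs of 852 and 1046 (two-sided exact permutation test, p = 0.516, adjusted p = 0.516). Trees 13 and 14 together averaged 1052.5 ± 926 (SD, n = 10) and tree 4 averaged 675 ± 435 (SD, n = 4), a difference of 377 (two-sided exact permutation test, p = 0.484, adjusted p = 0.516). A branch of tree 4 had fewer libraries of its own individual to share a call with. The individuals thus had unequal chances of a single-branch call, which limits this comparison. As a share of called regions, single-branch regions were 2.81 ± 2.19% in tree 13 (SD, n = 5), 3.93 ± 2.67% in tree 14 (SD, n = 5) and 2.40 ± 1.27% in tree 4 (SD, n = 4). The shares differed by -1.12 percentage points between the stems (exact permutation p = 0.476) and by 0.970 percentage points between the individuals (exact permutation p = 0.462). Adjusted p was 0.516 for both permutation tests. These tests exchanged branches of 3 trees, so they could describe these trees only. The numbers tested come from the peak calls that chose the regions, and a region credited to 1 branch cannot count for another. No conclusion about the trees is drawn from these p-values. List length differed between libraries, so the tests cannot tell a difference between trees from one of list length. With the regions drawn anew from the remaining libraries, the difference between the stems was -17.9 regions without branch 14.3 and -907 without branch 13.2.

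**Figure D1:**
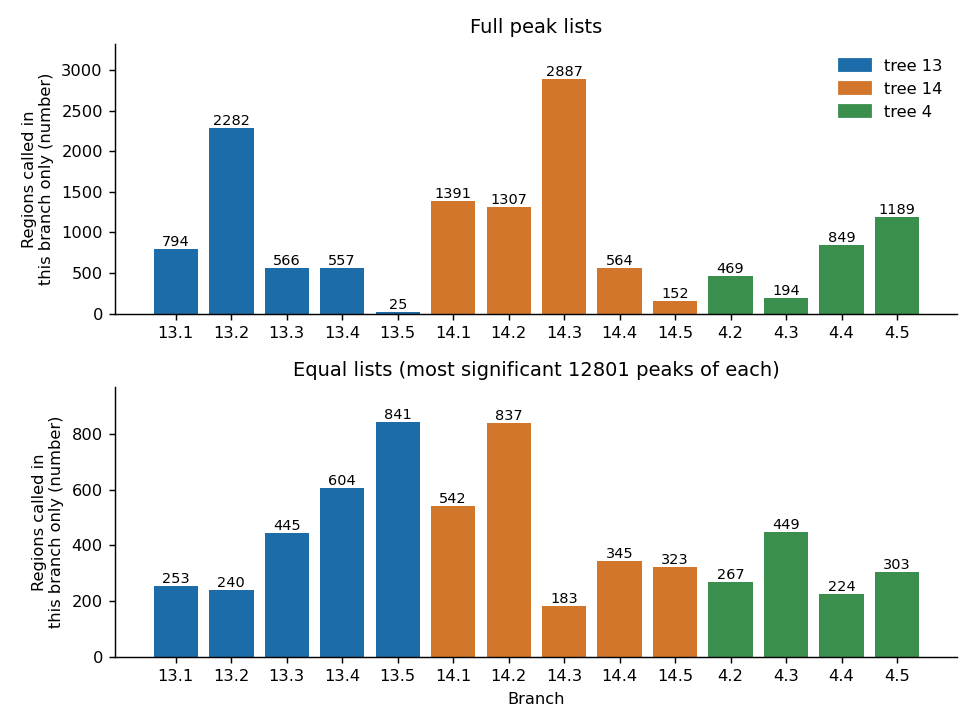
Number of regions called in a single branch, by branch, from the full peak lists (upper panel) and from lists cut to the 12801 most significant peaks of each library (lower panel). Bars are single libraries, coloured by tree. The list of 13.5 holds 12801 peaks and was not cut. Branch 14.3 is highest (2887) and 13.5 lowest (25) in the upper panel, while 13.5 is highest (841) and 14.3 lowest (183) in the lower.

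The order of the branches turned over when every list was cut to the same length. With the 12801 most significant peaks of each library, 5856 regions were called in a single branch. In tree 13 the numbers were then 253 in branch 13.1, 240 in 13.2, 445 in 13.3, 604 in 13.4 and 841 in 13.5. In tree 14 they were 542 in branch 14.1, 837 in 14.2, 183 in 14.3, 345 in 14.4 and 323 in 14.5. In tree 4 they were 267 in branch 4.2, 449 in 4.3, 224 in 4.4 and 303 in 4.5. Branch 13.5 thus moved from the lowest place to the highest and branch 14.3 from the highest to the lowest. The list of 13.5, the shortest, was left whole, while every other list lost its weaker peaks. Its weak peaks were therefore set against only the stronger peaks of the other branches. Branch 14.2 stood high in both, behind 3 branches with full lists and behind only 13.5 with equal lists. The difference between tree 13 and tree 14 changed sign to 30.6 (exact permutation p = 0.873, adjusted p = 0.881).

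The regions called in a single branch with equal lists were mostly not those found with full lists. Only 331 of the 5856 (5.65%) were also single-branch regions in the full lists. The rest were called in further branches once the weaker peaks were admitted, and the median of all 5856 was 7 branches. For branch 13.5, 25 of the 841 stayed with this branch alone, and 457 were called in 10 or more branches of the full lists. Its list was not cut, so all of its 25 single-branch regions had to stay. The share that stayed was highest in branch 14.2, with 12.2% of 837 regions, and next in 13.4, with 58 of 604 (9.60%).

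Single-branch regions came from weak peaks. Each consisted of exactly 1 peak. The caller gives every peak a −log10 q, its adjusted significance within its own library, and the weakest peak of a list was at 2.05 or lower. Across the 14 libraries the median −log10 q of single-branch regions was lowest in branch 14.5 (2.80), 3.20 in the middle and highest in branch 14.4 (3.48). The median over all peaks of a list ran from 4.69 to 5.82, and that over peaks in regions called in all 14 libraries ran from 6.53 to 11.4. In every library the median of single-branch regions was below the other medians given. Peaks just outside the rule, in the 5262 regions called in exactly 2 libraries, had list medians of 2.80 to 3.68, close to those of single-branch regions.

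**Figure D2:**
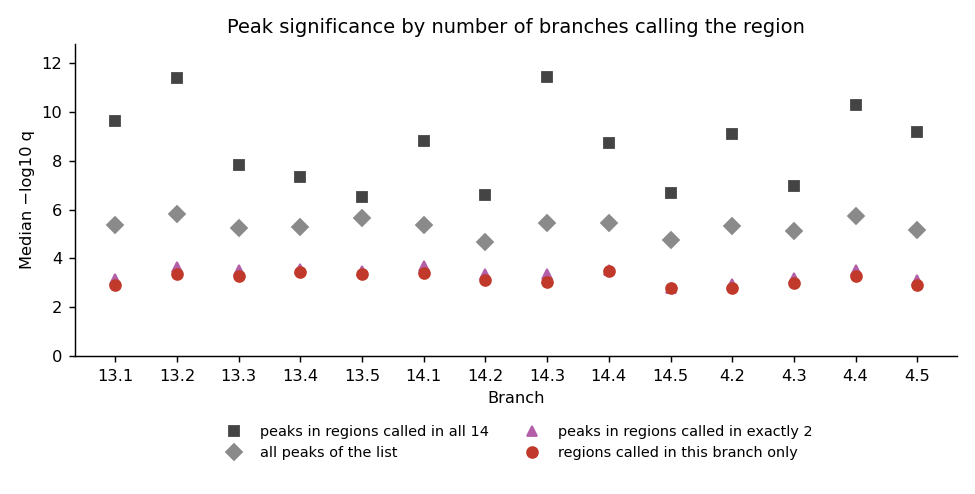
Median −log10 q within each library for single-branch regions (circles), peaks in regions called in exactly 2 branches (triangles), all peaks (diamonds) and peaks in regions called in all 14 branches (squares). Single-branch regions lie between 2.80 and 3.48 in every branch, below the median of the whole list.

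By rank within its own list, 9587 single-branch regions (72.5%) fell in the least significant 25% and 575 (4.35%) in the most significant 50%. The number in the most significant 50% was 0 in branch 13.5, 1 in 4.3 and 118 in 14.2. As a share of single-branch regions this was highest in branch 14.2 (9.03%), ahead of 13.4 (7.36%) and 14.1. A −log10 q of at least 5 was reached by 909 regions (6.87%).

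The strongest single-branch region of all was on chromosome 5 from 18934263 to 18934400 in branch 14.1, with a −log10 q of 10.2, above 85.5% of the peaks of that list. It lay 8978 bp from the nearest region called in all 14 libraries. The nearest merged region with a peak of another library was 566 bp away. The next strongest were in branch 14.2 on chromosome 5 from 13157565 to 13157701 (−log10 q of 9.34) and in branch 13.2 on chromosome 8 from 1081439 to 1081580 (9.16). The former ranked above 88.5% of its list, the highest rank of any of the 14 strongest regions, and lay 154107 bp from a region called in all libraries. At the other end, the strongest region of branch 13.5 reached a −log10 q of 5.12 (chromosome 9, 964918 to 965194), and that of branch 14.5 reached 5.47 (chromosome 7, 2688670 to 2688823). The strongest of tree 4 was in branch 4.4, on chromosome 12 from 11638657 to 11638802 (8.11).

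Single-branch regions were also narrow. Their width ran from 90 to 558 bp with a median of 121 bp, against 177 bp for regions called in exactly 2 libraries and 483 bp for those called in all 14. A region is the union of all peaks merged into it, so the width grows in part with the number of calls. The widest were on chromosome 18 from 1068274 to 1068832 (558 bp, branch 14.3), on chromosome 1 from 3898979 to 3899508 (529 bp, branch 13.2) and on chromosome 16 from 14345355 to 14345861 (506 bp, branch 13.4). No region of a single library reached 1000 bp, so the limit on width removed none. Regions of 300 bp or more numbered 188.

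Each list has a narrowest peak width of its own, from 90 bp in branch 14.4 to 159 bp in 13.5. Between 24.4% (branch 14.3) and 51.3% (branch 14.5) of the single-branch regions of a library were exactly as wide as this minimum. Over all peaks of a list the share was 5.06% to 9.63%. In every library the share was higher among single-branch regions than in the whole list. In all, single-branch regions covered 1.84 Mb, or 11.1% of the merged base pairs.

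The list of the library titled 1.1, which was placed in no tree because its title and its peak names disagree, took no part in the choice of regions and served as a held-out list. At least 1 base of a peak of this list fell in 685 single-branch regions (5.18%), against 48.1% of all merged regions. The share rose at each step with the number of libraries calling a region, from 11.8% of those called in exactly 2 to 31.5% of those called in 5, 74.8% of those called in 10 and 99.8% of those called in all 14. Narrow regions offer fewer bases to overlap, and width rose along with the number of calls. By branch the share of single-branch regions overlapped was lowest in 14.2 (33 of 1307, 2.52%) and highest in 4.2 (46 of 469, 9.81%), with a median of 5.38% over the 14 branches.

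**Figure D3:**
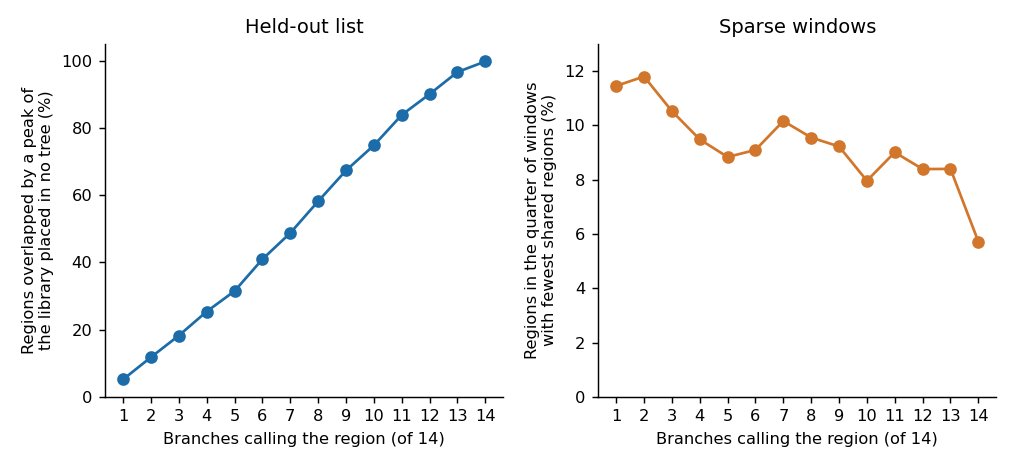
Merged regions grouped by the number of branches that call them, from 1 to 14. The left panel gives the percentage overlapped by a peak of the library placed in no tree, rising from 5.18% to 99.8%, and the right panel gives the percentage lying in the 100 windows of 1 Mb with the fewest regions called in all branches, which is 11.5% at 1 branch, highest at 2 branches (11.8%) and lowest at 14 (5.72%). The last value is low by construction, since the windows were chosen for holding few regions called in all 14.

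The nearest merged region that held a peak of another library lay a median of 1199.5 bp away, measured to the edge of that region. It was within 100 bp for 948 regions (7.17%) and within 500 bp for 3818 (28.9%). By branch, the share within 500 bp ran from 22.4% in 14.5 (34 of 152) to 48% in 13.5, where it rests on 12 of 25 regions. Another merged region of any library lay within 500 bp of 29.4% of single-branch regions, 27.4% of regions called in exactly 2 libraries and 24.6% of all merged regions. Some missed a region called everywhere by a few bases. A region of branch 13.3 on chromosome 4 from 6443212 to 6443356 and a region of branch 14.5 on chromosome 6 from 14171286 to 14171416 each lay 2 bp from a region called in all 14 libraries, and one of branch 4.2 on chromosome 11 from 16588775 to 16588933 lay 4 bp away. Merging peaks up to 100 bp apart left 12266 single-branch regions.

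Single-branch regions lay farther from regions called in all 14 libraries than regions called in 2 to 9 or in 10 to 13 libraries did, but were not shown to differ from regions called in exactly 2. Distances were measured from edge to edge within a chromosome. The median distance per library was lowest in branch 13.5 (7143 bp), 11615 bp in the middle and highest in branch 14.5 (15376.5 bp). For regions called in 2 to 9 libraries the medians ran from 5979 to 11358 bp, with 9994.5 bp in the middle, so the ranges overlapped. Within a library, single-branch regions were the farther in 13 of 14 libraries, branch 14.4 being the exception (8992 against 9460 bp). The mean difference was 0.24 ± 0.16 on the log2 scale (SD, n = 14), a 1.18-fold greater distance (two-sided exact sign-flip permutation test, p = 0.000366, adjusted p = 0.00128).

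Against regions called in 10 to 13 libraries, whose medians ran from 7429 to 9822.5 bp, the difference was 0.29 ± 0.24 on the log2 scale (SD, n = 14) and positive in 11 of 14 libraries (exact sign-flip permutation test, p = 0.000977, adjusted p = 0.00228). Branches 13.4, 13.5 and 14.4 went the other way. The libraries share the regions they are compared with, so their differences are not fully independent and these p-values are too small. With equal lists the differences fell to 0.094 (adjusted p = 0.0709, exact permutation test) and 0.14 (adjusted p = 0.0709, exact permutation test), no longer past the threshold. With the most significant 50% of each list they fell to 0.12 (adjusted p = 0.00385, exact permutation test) and 0.16 (adjusted p = 0.00342, exact permutation test).

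Against regions called in exactly 2 libraries alone, a comparison added after the data had been seen, the difference was 0.10 ± 0.20 on the log2 scale (SD, n = 14), positive in 12 of 14 libraries and within the spread between libraries (exact sign-flip permutation test, p = 0.0765, adjusted p = 0.268). Branches 13.2 and 4.3 went the other way.

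**Figure D4:**
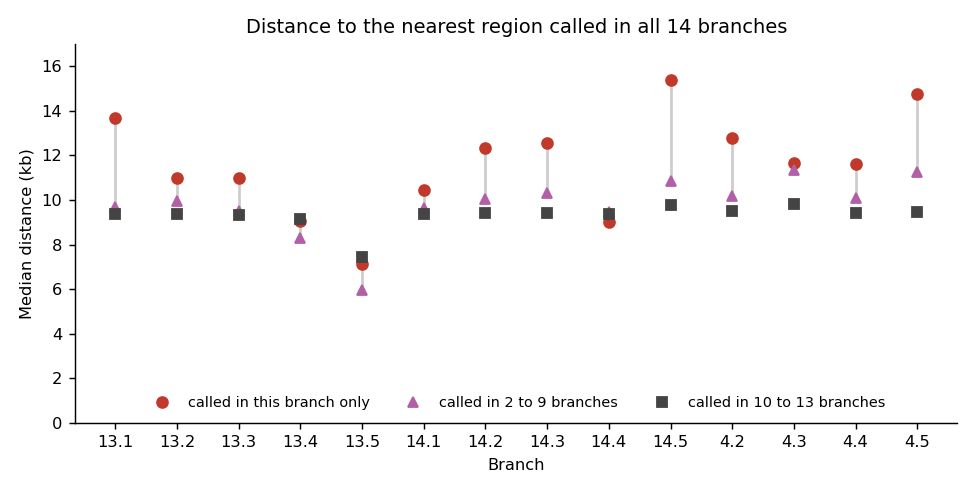
Median distance in kb from regions of each library to the nearest region called in all 14 branches, for regions called in that branch only (circles), in 2 to 9 branches (triangles) and in 10 to 13 branches (squares). Grey lines join circles and triangles, and the circle is the higher in 13 of 14 branches, with 14.4 as the exception.

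Pooled over libraries, 11.8% of single-branch regions lay within 2 kb of a region called in all libraries, against 14.6% of regions called in 2 to 9, 15.6% of those called in 10 to 13 and 16.8% of the regions called in all 14 that were under 1000 bp, taken to their nearest neighbour. Of all bases outside regions called everywhere, up to the last peak of each chromosome, 9.26% lay within 2 kb. At the far end, 11.4% of single-branch regions were 50 kb or more away, against 9.81% of those called in 2 to 9, 8.37% of those called in 10 to 13 and 25.3% of bases. The median distance of a base was 18184 bp. Single-branch regions thus lay between the shared regions and the bases of the chromosomes in their distances.

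The 3 farthest were all on chromosome 3, in a window with no region called in all libraries. They ran from 3717969 to 3718245 in branch 13.2 (1071044 bp away), from 3595719 to 3595867 in branch 14.3 (1049501 bp) and from 3493089 to 3493200 in branch 4.5 (946871 bp). They came from all 3 trees, and only the second had a merged region with a peak of another library nearby, at 205 bp.

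The spread along the chromosomes was then compared in 400 windows of 1 Mb. Every window held at least 1 single-branch region, with a median of 34 and a highest value of 64, including the 6 windows with no region called in all 14 libraries, which held 50 single-branch regions together. The 100 windows with the fewest regions called in all libraries (0 to 12 each) held 15.2 single-branch regions per window, and the 100 with the most (36 to 71) held 47.8. Regions called in 2 to 9 libraries went from 22.1 to 84.1 per window. Both classes were denser where regions called everywhere were denser. For each region called in all libraries there were 2.72 single-branch regions in the first group of windows and 1.04 in the last, and for regions called in 2 to 9 these ratios were 3.98 and 1.84. The windows were ranked by the denominator of these ratios, so a fall is built into them.

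Per library, the share of single-branch regions in the 100 sparsest windows was lowest in branch 13.5 (8%), 11.2% in the middle and highest in branch 4.3 (18.0%). For regions called in 2 to 9 libraries it ran from 5.37% to 12.0%, with 9.71% in the middle. Against these, the share of single-branch regions was the higher in 14 of 14 libraries, by 2.12 ± 1.65 percentage points (SD, n = 14; two-sided exact sign-flip permutation test, p = 0.000122, the smallest this design allows, adjusted p = 0.000854). The libraries share the windows and the comparison regions here too. In branch 13.5 the share rests on 25 regions.

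The difference in sparse windows was not seen against regions called in exactly 2 libraries, of which 11.8% lay there when pooled, against 11.5% of single-branch regions. Per library the share of single-branch regions was higher in 5 of 14 and the mean difference was -1.34 ± 4.23 percentage points (SD, n = 14; exact sign-flip permutation test, p = 0.144, adjusted p = 0.336). Without branch 13.5, which has 25 single-branch regions and 21 called in exactly 2, it was -0.227 ± 0.745 (SD, n = 13; exact permutation p = 0.288).

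In the full lists, the greater distance than that of regions called in 2 to 9 or in 10 to 13 libraries was not confined to sparse windows. In the 100 windows with the most shared regions the median distance was 8306 bp for single-branch regions, 7225 bp for regions called in 2 to 9 and 6992.5 bp for those called in 10 to 13. Outside the 100 sparsest windows the difference from regions called in 2 to 9 was 0.21 on the log2 scale (adjusted p = 0.00726, exact permutation test). The libraries share the comparison regions, so this p-value is too small. The check was added after the data had been seen and was not made against regions called in exactly 2.

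Every chromosome held single-branch regions, from 423 on chromosome 19 to 1588 on chromosome 1. Per Mb up to the last peak, the density was lowest on chromosome 11 (24.4) and highest on chromosome 9 (42.4). Regions called in all 14 libraries varied more, from 11.7 per Mb on chromosome 19 to 36.9 on chromosome 9. Single-branch regions were 29.4% of the merged regions of chromosome 19 and 22.1% of those of chromosome 8, the highest and the lowest share. For each region called everywhere there were 2.26 single-branch regions on chromosome 19 and 1.11 on chromosome 8.

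**Figure D5:**
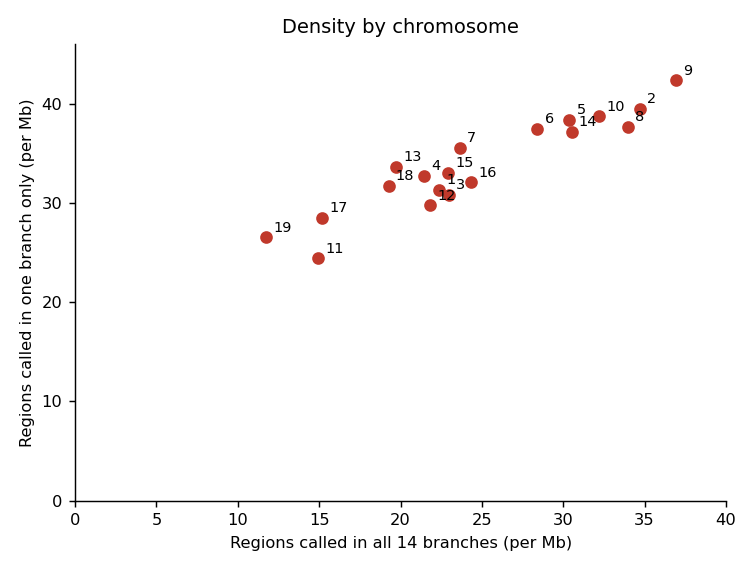
Single-branch regions per Mb against regions called in all 14 branches per Mb, 1 point for each of the 19 chromosomes, labelled by number, with Mb counted up to the last peak. Chromosome 9 is highest on both axes (42.4 and 36.9 per Mb), and chromosome 19 is lowest on the horizontal axis (11.7 per Mb) but not on the vertical.

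The share of single-branch regions on each chromosome was compared with that of regions called in 2 to 9 libraries, library by library. By the two-sided exact sign-flip permutation test 0 of 19 chromosomes (0%) passed the threshold of 0.05 after adjustment, and 1 did so before it. That was chromosome 13, named because the count was 1, with 4.53 ± 1.36% of single-branch regions against 3.67 ± 0.382% (SD, n = 14), higher in 11 of 14 libraries (exact permutation p = 0.0273, adjusted p = 0.322). The mean difference for chromosome 19 was 0.445 percentage points, higher in 10 of 14 libraries (exact permutation p = 0.149, adjusted p = 0.472). Against regions called in 10 to 13 libraries, 1 of 19 chromosomes (5.26%) passed. It was chromosome 2, named because the count was 1, with 7.09% against 8.18%. The share of single-branch regions was lower in 13 of 14 libraries (exact permutation p = 0.000366, adjusted p = 0.00696). Against regions called in 2 to 9 libraries, chromosome 2 did not pass (exact permutation p = 0.0543, adjusted p = 0.322). Each library counted equally, including branch 13.5 with its 25 regions. The libraries share the comparison regions, so these p-values are too small.

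Neighbouring single-branch regions came from the same library about as often as the numbers per library give. Of 4946 pairs of neighbouring single-branch regions within 10 kb, 548 (11.1%) came from the same library, against 12.1% if each region took its library in proportion to the numbers above. In windows of 100 kb the most from a single library was 6, in branch 14.3 on chromosome 1 from 9400001 to 9500000, where −log10 q ran from 2.40 to 3.35. The next highest number was 5, at which 9 windows were tied. The pair of these named, first in order of library and position, was also of branch 14.3, on chromosome 1 from 10500001 to 10600000 and from 16700001 to 16800000.

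The 5262 regions just outside the rule, called in exactly 2 libraries, came from 2 libraries of the same tree in 1535 cases, from tree 13 and tree 14 in 1719 and from tree 4 and another tree in 2008. Trees 13, 14 and 4 had 5, 5 and 4 libraries, so these kinds offer unequal numbers of library pairs. The counts alone do not show that any kind was favoured. The most frequent pair, with 537 regions, was 13.2 and 14.3, the same branches that had the most single-branch regions, and 68.1% of these regions involved 13.2 or 14.3.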

How the data were processed

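ATAC-seq was done on leaves of single branches, 1 library per branch. The authors deposited a peak list per library with each peak's position, score, −log10 p-value and −log10 q-value. For 99.9932% of peaks the deposited score equals 10 times the −log10 q, cut to a whole number. The submitters' processing notes name Trimmomatic 0.36, Bowtie 1.1.1 and MACS2 2.1.2. The sources used here give neither settings nor build, nor whether reads were shifted to the transposase cut. The lists hold no read counts, so depth is unknown, no counting interval is given, and a missing call is no evidence of closed chromatin. Whether starts count from 0 or 1 is not known either, and coordinates are printed as deposited.

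The tree number in each title set a library's group. The library titled 1.1 entered no comparison. Peaks off the 19 chromosomes (0.305%) were left out. Groups of libraries were set against each other by exact two-sided permutation tests and paired values by exact sign-flip tests, with Benjamini-Hochberg adjustment over 7 single-value tests and over 19 chromosomes. Replicates are branches of the same few trees. The regions, tests and alternatives were chosen with earlier results of these data known. Named regions are the most significant of each library, the 3 widest, the 3 nearest to and 3 farthest from a region called everywhere, and the 3 windows of 100 kb richest in regions of 1 library. For 8 chromosomes, peaks reached past the last gene of the RefSeq table held (P.trichocarpa_v4.1), by up to 1.75 Mb, and regions called everywhere did not gather at its gene ends (18.1% within 500 bp, against 18.0% when moved by 10 kb), so no gene or sequence is given. The functions were tested on simulated data. The exact tests ran in numpy 2.4.6 under Python 3.11.15, and scipy 1.17.1 served to check a test on simulated data. Tables were made in pandas 2.3.3 and plots in matplotlib 3.10.9.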

Additional observations from a re-analysis of the deposited data

Results flagged for a closer look

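Of the list of the library titled 1.1, which entered no comparison between trees, peaks overlapped 685 single-branch regions, so that many were met by a peak of a 15th library. Its tree is not settled by its labels, and nothing is drawn from it about any tree. Among 27 groups (9 measures of single-branch regions in 3 trees), 0 branches stood far from the rest of their tree by Dixon's 95% critical values.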

How the results depend on the processing

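The 7 tested differences were recomputed 154 times, giving 148 values with the same sign and call, 3 of opposite sign and 3 that no longer passed. Most of the recomputed values left out a single library. The differences between trees passed in no setting, so for them the same call means only that they again did not pass. Taking only the most significant 50% of each list left 6171 single-branch regions and lists of equal length left 5856, each admitting fewer peaks. With equal lists tree 13 minus tree 14 reversed to 30.6 regions and to 0.237 percentage points of called regions, and the log2 distance fell to 0.094 (adjusted p = 0.0709) against regions called in 2 to 9 and 0.14 (adjusted p = 0.0709) against those called in 10 to 13; over all alternatives the adjusted p ran from 0.00128 to 0.268 for the former and from 0.00171 to 0.0709 for the latter by exact permutation tests. With regions called in exactly 2 in place of 2 to 9, the log2 distance fell to 0.10 and the difference in sparse windows reversed to -1.34 percentage points. With the most significant 50% of each list the log2 distances were 0.12 and 0.16. Chromosomes past the threshold numbered 1 against regions called in 10 to 13. The cause of these changes was not tested.

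With each library left out and the regions drawn anew from the rest, single-branch regions numbered from 12633 to 13386. Regions called everywhere were then those called in all remaining libraries. Differences ran from -907 to -17.9 regions between stems and from 185 to 584 against tree 4, from -2.30 to -0.331 and from 0.503 to 1.57 percentage points of called regions, from 0.20 to 0.25 and from 0.27 to 0.32 in log2 distance, and from 1.62 to 3.03 percentage points in sparse windows. No chromosome passed in any.

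Same-numbered branches of trees 13 and 14 share only a number: deviations of their calls from the tree means correlated at -0.0912 to 0.120 in 5 pairs, and 2 of 10 libraries correlated best with their own number. With a replicate block the differences were -415 regions (exact permutation p = 0.562) and -1.12 percentage points (p = 0.5), where 5 pairs cannot give a p below 0.0625. Distances outside sparse windows and the comparison with regions called in exactly 2 were added after the data had been seen. With no read depth, missed calls cannot be told from true absences, and with 1 library per branch no call of a single branch could be checked in the same branch.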
